A study of Mus musculus with 4 samples.

Results

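Integrins and cadherins are the 2 main families of receptors by which stromal cells hold on to matrix and to each other. They were compared here between OP9 cells, a mouse bone marrow stromal line, carrying the LZRS-IRES-GFP retroviral vector without an insert (Control, 2 arrays) and OP9 cells carrying that vector with Wnt3A (Wnt3A, 2 arrays). All cells were grown in the same medium with fetal calf serum, and both groups carried the vector and its GFP marker. Members were taken by name: alpha and beta integrin subunits whose symbol is Itga or Itgb with a number or letter, and cadherins whose symbol is Cdh with a number. The rule found 102 probes of 48 genes, 25 integrins (17 alpha and 8 beta subunits) and 23 cadherins, among 41174 probes on the array. It is wider than the classical cadherins, since Cdh13, Cdh16, Cdh17, Cdh23 and Cdh26 belong to other branches of the family. The labels call the replicates separate without naming cultures or clones, so the p-values rest on a spread that may be technical.

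An integrin is a pair of 1 alpha and 1 beta chain, and the pairing sets what it binds. Alpha 1, 2, 10 and 11, which carry an inserted I domain, bind collagen with beta 1. Alpha 3, 6 and 7 bind laminin, and alpha v, 5 and 8 bind proteins with an Arg-Gly-Asp sequence such as fibronectin and vitronectin. Cadherins bind like to like between neighbouring cells in the presence of calcium, and inside the cell they hold beta-catenin, the protein that also carries the canonical Wnt signal to the nucleus. In marrow stroma, Cdh11 and Cdh2 are the cadherins best known from osteoblasts and mesenchymal cells.

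Values are linear intensities from the deposited table, in which every array has a median of 1. Tests used log2 values minus each array's 75th percentile in limma, with Benjamini-Hochberg adjusted p-values over the 33709 probes kept, and a gene was called at an adjusted p under 0.05. The estimated detection floor lay at 0.0533 to 0.0729, a lenient limit. The array's probe for Wnt3a read 0.0151 and 0.0134 in Control and 0.0112 and 0.123 in Wnt3A. It was above the floor on 1 array only, Wnt3A replicate 2, whose floor was 0.0729. A value so near the floor is no firm check of the labels of either Wnt3A array. The scanner files deposited beside the table did not follow the same grouping. All 4 table columns ranked closest to the file of Control replicate 2 (Spearman's rho over spots 0.826 to 0.845), and rho with a column's own file ran from 0.637 to 0.826. Their values for the members are given beside the called genes and, for the genes that differed most between the sources, in the last paragraph. Of the mesenchymal stroma markers, 10 of 11 were above the floor on all arrays, with a summed intensity of 636 to 923 in Control and 1536 to 1640 in Wnt3A. That list includes the collagens Col1a1, Col1a2 and Col3a1. Col1a1 alone read 158 and 256 in Control and 671 and 736 in Wnt3A, so the sum does not show a rise of the other markers. The skeletal muscle list, 6 of 6 above the floor, summed to 44.1 to 51.1 and 74.5 to 82.1. That sum does not show which of its genes differed. The part of either list in the results below was not tested. The neuronal and glial list summed to 13.8 to 18.2 and 16.9 to 17.6. In bulk RNA, fewer cells of a type and less RNA per cell cannot be told apart.

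Most adhesion receptors of OP9 cells did not pass the test, and the large differences were in a few: the collagen receptor chain Itga11 and the cadherin Cdh11 were far higher in the Wnt3A arrays, and the laminin receptor chain Itga6 was lower. Of the 48 genes, 46 had a probe above the floor on both arrays of a group and were tested, each by its brightest kept probe. By that probe 1 gene rose (Itga11) and 0 fell. Over all 22860 genes tested, 0.402% rose and 0.241% fell. Counted as probes, 3 of 77 member probes rose and 0 fell, against 0.424% and 0.255% of all probes: that of Itga11 and 2 of Cdh11. These 3 probes were below the floor in Control and entered the test through the Wnt3A arrays alone. When all 4 arrays had to exceed the floor, 0 members rose. An unadjusted p under 0.05 was reached by 6 member genes (Itga11, Cdh11, Cdh3 and Itga9 higher, Itga6 and Cdh1 lower), or 13.0%, where all genes gave 12.7%. The median log2 change of the 46 genes was 0.03, with 25 higher and 21 lower, and that of all genes was -0.01. Arrays of the groups did not overlap for 20 member genes (43.5%), close to the 45.2% of all genes, and 8 member genes (17.4%) differed by 1 or more on the log2 scale, against 20.1%. These shares were near those of all genes. A gene without a call may still have changed, since the test called 0% of simulated log2 changes of 2.

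**Figure D1:**
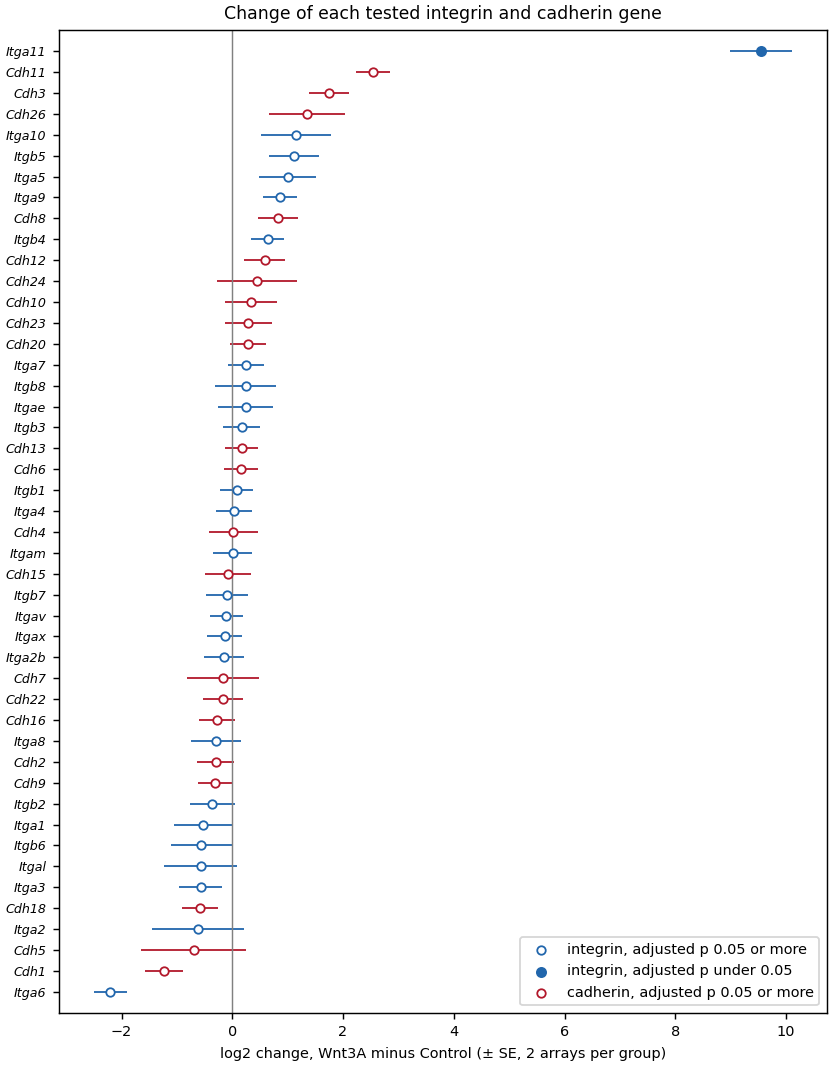
Log2 change in Wnt3A against Control of each of the 46 tested genes, integrins in blue and cadherins in red; bars are the standard error with 2 arrays per group, and a filled point has an adjusted p under 0.05. Itga11 is the only filled point, at a measured 9.54 from Control values below the floor, and Itga6 at -2.20 is at the bottom.

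Among the collagen-binding alpha chains, Itga11 rose. Itga11 encodes the chain that pairs with beta 1 to bind fibrillar collagen on fibroblasts and other mesenchymal cells. Its single probe (chromosome 9, 62581866 to 62581925 on mm8) read 0.0350 and 0.0150 in Control, both below the floor, and 19.5 and 14.7 in Wnt3A. Neither Control array came near a Wnt3A array. Against the floor, Itga11 was at least 256-fold higher in Wnt3A (adjusted p 0.0279 in limma; measured means on the scaled log2 axis -7.74 and 1.80), a bound that is 128-fold with a floor 2 times as high. The probe entered the test through the Wnt3A arrays alone, and its SE of 0.56 and its p rest on Control values below the floor. It passed in 7 of the 12 alternatives that gave a value. With any 1 array left out no gene at all was called, and the measured log2 difference of Itga11 was then 8.88 to 10.2 (adjusted p 0.147 to 0.192). In the scanner files this probe was well above background on 1 array, a Wnt3A array, and was not tested there. Its signals there were 2.79 and 11.4 in Control and 122 and 6.28 in Wnt3A, so the groups overlapped.

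The other collagen-binding chains did not pass. Itga10, known best from cartilage, read 5.62 and 3.31 in Control and 5.84 and 15.4 in Wnt3A. The groups did not overlap, but the 2 Wnt3A arrays lay further apart than the groups, and the change was 1.15 ± 0.63 (adjusted p 0.534). For Itga1 the probes went opposite ways: the one at transcript position 683 read 5.199 and 3.66 in Control and 1.99 and 4.58 in Wnt3A (-0.52 ± 0.54, overlapping arrays), and the one at 3710 changed by 0.97 ± 0.61. Itga2 read 0.418 and 0.0958 against 0.144 and 0.116 (-0.62 ± 0.83), so a single Control array set its sign. Itga1 and Itga2 are next to each other in the genome, as the RefSeq table orders protein-coding genes.

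The promoter of Itga11 is shown with those of Itga10, another collagen-binding chain, and Itgb1, the beta chain they share, as 3 genes with unlike changes. Those of Itga1 and Itga2, the other collagen-binding chains, are not printed. Each window holds 300 bases around the start of the gene in RefSeq (GRCm38.p6, plus strand), and 31 of the 48 members had such a window. Capitals mark matches on either strand to 4 motifs: TCF/LEF (CTTTGAA or CTTTGAT or CTTTGTA or CTTTGTT), the E-box CAGGTG, RUNX (TGTGGT) and the GC box GGGCGG; none of these overlap here.
Itga11 (chr9:62677605-62677904): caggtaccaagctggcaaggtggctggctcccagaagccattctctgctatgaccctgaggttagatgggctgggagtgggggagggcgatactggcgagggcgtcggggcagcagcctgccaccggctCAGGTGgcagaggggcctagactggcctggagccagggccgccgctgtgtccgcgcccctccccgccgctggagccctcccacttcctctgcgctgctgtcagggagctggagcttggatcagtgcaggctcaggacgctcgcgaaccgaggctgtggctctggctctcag
Itga10 (chr3:96645334-96645633): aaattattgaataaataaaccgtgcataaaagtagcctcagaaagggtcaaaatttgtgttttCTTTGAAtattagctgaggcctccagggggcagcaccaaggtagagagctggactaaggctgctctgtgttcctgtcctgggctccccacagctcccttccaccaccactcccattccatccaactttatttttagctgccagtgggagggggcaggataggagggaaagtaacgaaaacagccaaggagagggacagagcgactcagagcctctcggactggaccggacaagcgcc
Itgb1 (chr8:128685404-128685703): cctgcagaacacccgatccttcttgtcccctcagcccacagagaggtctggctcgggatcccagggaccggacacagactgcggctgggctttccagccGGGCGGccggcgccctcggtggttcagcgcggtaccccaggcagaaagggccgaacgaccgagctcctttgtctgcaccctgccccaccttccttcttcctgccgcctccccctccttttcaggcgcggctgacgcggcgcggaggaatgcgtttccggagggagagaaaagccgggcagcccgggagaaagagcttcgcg
The Itga11 window held 1 CAGGTG, which 20% of 27025 promoters of the same length also hold. The Itga10 window held 1 TCF/LEF match, a motif in 16.9% of all promoters, and the Itgb1 window 1 GC box (35.9%). Over the 31 member promoters, TCF/LEF letters stood in 4 (Cdh6, Cdh26, Itga1 and Itga10), CAGGTG in 6, TGTGGT in 5 and GGGCGG in 13. RUNX letters were in 16.9% of all promoters. A match is a description of the letters in this window.

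Among the laminin-binding alpha chains, Itga6 was lower in the Wnt3A arrays but did not pass. Itga6 encodes the alpha 6 chain, which pairs with beta 1 or beta 4 and is a widely used marker of stem and progenitor cells in several tissues. Its brightest probe (chromosome 2, 71658755 to 71658814 on mm8) read 15.8 and 16.2 in Control and 3.43 and 3.47 in Wnt3A. A second probe, at transcript position 3583, read 9.15 and 11.6 against 1.78 and 1.89. In both, each Wnt3A array was below each Control array by more than the replicates differed. The changes were -2.20 ± 0.30 (adjusted p 0.0853) and -2.48 ± 0.31 (0.0753), and both passed only with trend and robust settings (0.0457 and 0.0487). Another probe, at 3213, read 0.370 and 0.312 against 0.171 and 0.324 and overlapped (-0.52 ± 0.44). In the scanner files the brightest probe changed by 0.02 and the one at 3583 by -1.16, neither past the threshold.

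Itga3 and Itga7, the other laminin-binding chains, moved less. The probe that stands for Itga3 read 5.30 and 4.99 in Control and 4.35 and 2.73 in Wnt3A (-0.57 ± 0.39, adjusted p 0.621). Its other probes changed by -0.86 and 0.43, so they differed in direction. Itga7, a chain known from muscle, read 52.1 and 41.2 in Control and 54.6 and 55.1 in Wnt3A (0.25 ± 0.33). Its second probe changed by 1.44 ± 0.58 (adjusted p 0.401). Over this class 1 gene was higher and 2 lower, with a median of -0.57 and 0 past the threshold.

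The alpha chains that bind Arg-Gly-Asp proteins showed no call. Itga5, the fibronectin receptor chain, read 3.33 and 8.31 in Control and 10.96 and 9.87 in Wnt3A. Both Wnt3A arrays were higher, yet the Control arrays differed from each other by more than the nearer of them did from Wnt3A, and the change of 1.00 ± 0.51 did not pass (adjusted p 0.510). Itgav, the chain of the vitronectin receptors, had 6 probes tested. The brightest read 10.9 and 12.6 against 10.9 and 10.7 (-0.11 ± 0.30, adjusted p 0.922), and in the scanner files it changed by -2.99. The other 5 changed by -0.72 to 1.81, 4 of them upward, and the mean of all 6 was 0.79 (0.584), so the sign for Itgav depends on the probe. Its probe at position 79 came closest to the threshold, from 0.0291 and 0.0351, both below the floor, to 0.101 and 0.0969 (at least 1.49-fold higher, adjusted p 0.142). Itga8 changed by -0.30 ± 0.45 and Itga2b, the platelet chain, by -0.15 ± 0.36. Of the platelet and megakaryocyte markers, 4 of 7 were above the floor on all arrays and Ppbp on none (summed intensity 22.9 to 27.2 in Control, 21.1 to 22.2 in Wnt3A).

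The beta chains had no call. Itgb1, the partner of most alpha chains above, read 42.2 and 43.0 in Control and 46.3 and 43.0 in Wnt3A at its brightest probe. Its 3 probes changed by 0.08 ± 0.30, 0.04 ± 0.33 and 0.00 ± 0.31, and the groups overlapped in each. The 95% interval of the first, from limma's moderated SE, ran from -0.73 to 0.89. The scanner files did not give level values for the same 3 probes, which changed there by 2.20, 0.75 and 0.25, none past the threshold. At the brightest probe the scanner signals were 2.52 and 1420 in Control and 289 and 4093 in Wnt3A, the lowest being from the dim file of Control replicate 1. Itgb3, the partner of alpha v and of the platelet chain, read 278 and 307 against 279 and 384 (0.17 ± 0.33). Its other probe, at 1097, was far dimmer, at 0.550 and 0.666 in Control and 0.329 and 0.607 in Wnt3A (-0.43 ± 0.42). Itgb5, another partner of alpha v, read 2.21 and 1.28 in Control and 4.15 and 3.13 in Wnt3A, with both Wnt3A arrays higher (1.11 ± 0.45, adjusted p 0.405). Itgb4, which pairs only with alpha 6, read 3.82 and 4.03 against 5.71 and 6.43 (0.64 ± 0.30, adjusted p 0.469), while Itga6 was lower. The 2 Itgb4 probes near the end of the transcript, whose positions overlap, both read higher in Wnt3A and the one at 3601 did not (-0.53 ± 0.66). Itgb2, Itgb6, Itgb7 and Itgb8 changed by -0.36, -0.56, -0.09 and 0.24. Across the 8 beta chains 5 were higher, 3 lower and 0 past the threshold.

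Integrins of blood cells had no call either. Itgal, Itgam, Itgax and Itgae, alpha chains of lymphocytes and myeloid cells, changed by -0.57, 0.01, -0.14 and 0.24. Itgam read 0.264 and 0.204 in Control and 0.251 and 0.212 in Wnt3A, and its second probe was below the floor on every array. The second probe of Itgax, at 3905, was lower in both Wnt3A arrays (0.291 and 0.249 against 0.148 and 0.117, adjusted p 0.333). The leukocyte and macrophage markers, 9 of 9 above the lenient floor on all arrays, summed to 13.6 to 20.4 in Control and 13.1 to 14.9 in Wnt3A. Itga4, which binds Vcam1 and fibronectin, read 6.52 and 5.35 against 5.71 and 6.24 (0.03 ± 0.33). Itga9, its close relative, read 0.168 and 0.154 in Control and 0.288 and 0.293 in Wnt3A. These values did not overlap and lay close within each group (0.86 ± 0.30), but the adjusted p was 0.353.

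**Figure D2:**
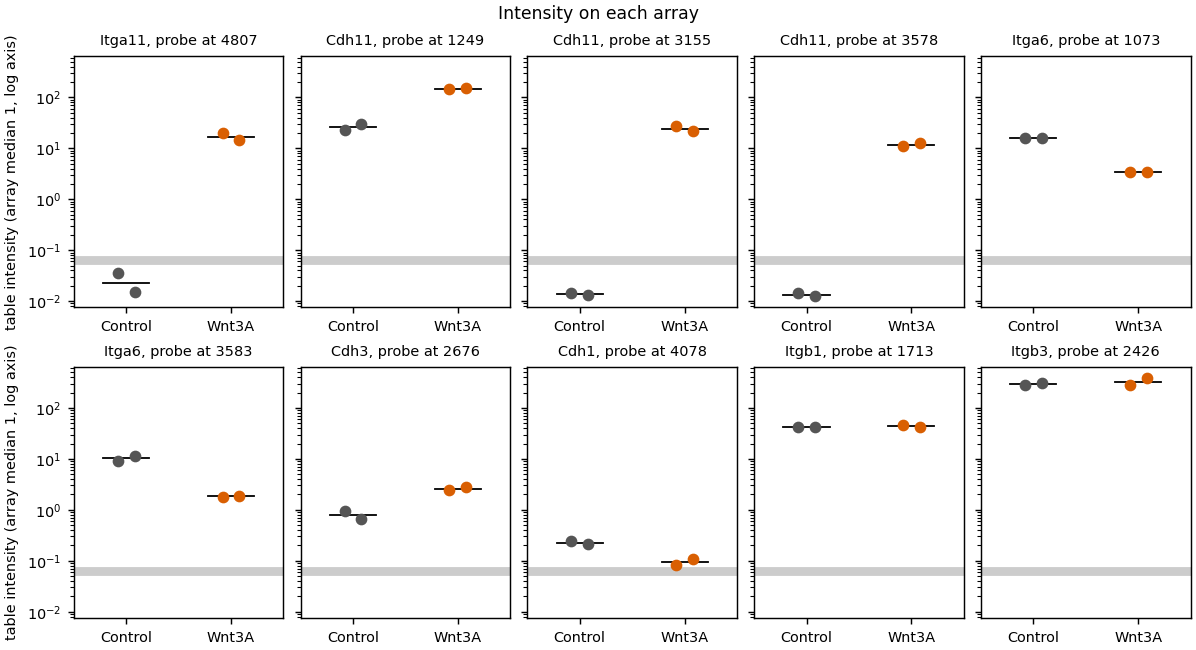
Table intensity on each array (log axis, array median 1) for 10 probes, with Control in grey, Wnt3A in orange, a black line at the geometric mean and a grey band over the range of the 4 estimated floors. Itga11 and the Cdh11 probes at 3155 and 3578 go from below the band to above 10, Itga6 drops in both probes shown, and the table values of Itgb1 and Itgb3 are alike in both groups.

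Among the cadherins, Cdh11 had the largest change. Cdh11 encodes OB-cadherin, a type II classical cadherin of mesenchymal cells and osteoblasts. It has 3 probes on the array, and all were higher in both Wnt3A arrays. The one at transcript position 3155 (chromosome 8, 105523125 to 105523184 on mm8) read 0.0144 and 0.0131 in Control, below the floor, and 27.1 and 21.8 in Wnt3A. The one at 3578 (105522702 to 105522761) read 0.0141 and 0.0126 against 10.8 and 12.7. They were at least 368-fold and at least 177-fold higher against the floor (adjusted p 0.0226 for each in limma), or 184-fold and 88.7-fold with a floor 2 times as high. The scaled log2 means were -8.47 and 2.33 for the former and -8.51 and 1.27 for the latter. The brightest probe, at 1249 (105557135 to 105557194), had clear signal in Control, at 22.5 and 29.4, and read 144 and 154 in Wnt3A. Its change was 2.54 ± 0.31, a 5.83-fold difference, and it missed the threshold (adjusted p 0.0738). Both called probes entered the test through the Wnt3A arrays alone, so the gene has no call from a probe above the floor in Control. With any 1 array left out, when no gene was called, their measured differences were 10.62 to 10.97 and 9.65 to 9.92 (adjusted p 0.147 to 0.192).

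The probes of Cdh11 thus gave the same direction and very unlike sizes. The sequence of the probe at 1249 is given here because it is the one that found signal in Control cells; capitals mark the 15 bases that encode the calcium-binding motif between cadherin repeats, which recurs through the family.
Cdh11 probe at 1249: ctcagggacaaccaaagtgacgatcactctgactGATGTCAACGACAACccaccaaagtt
The 60-base probes at 3155 and 3578 hold 36.7% and 28.3% G and C, and the one at 1249 holds 48.3%. The difference in size between the probes was not tested. In the scanner files the probe at 1249 changed by 1.72 (normexp 1.31) without passing. There the probe at 3155 was well above background on 2 arrays, reading 2.22 and 12.5 in Control and 20.5 and 5.27 in Wnt3A. Its groups thus overlapped. The one at 3578 was well above background on 0 arrays, at 2.19 and 2.08 against 2.11 and 2.47. Yet the table gives both probes more than 10 times the array median in Wnt3A.

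Of the type I classical cadherins, Cdh3 was higher and Cdh1 lower, and neither passed. Cdh3 encodes P-cadherin. Its probe (chromosome 8, 109444722 to 109444782) read 0.929 and 0.668 in Control and 2.44 and 2.81 in Wnt3A, a change of 1.74 ± 0.36 (adjusted p 0.171). Cdh1 encodes E-cadherin, the cadherin of epithelia. It has 10 spots on the array, whose means read 0.240 and 0.209 in Control and 0.0823 and 0.109 in Wnt3A (-1.23 ± 0.34, adjusted p 0.257). Those Wnt3A values lie near the floor. Cdh3 and Cdh1 are neighbours in the genome and their groups separated in opposite directions. The epithelial markers, 7 of 7 above the floor on all arrays, summed to 17.2 to 21.8 in Control and 17.4 to 19.2 in Wnt3A. Cdh2, N-cadherin, the cadherin of neural and mesenchymal cells, read 0.980 and 0.817 against 0.674 and 0.775 (-0.30 ± 0.33, adjusted p 0.770), with -1.52 in the scanner files. A second Cdh2 probe was also lower on average, with overlapping arrays (-0.80 ± 0.50), and the third was below the floor on every array. Cdh15, the cadherin of muscle precursors, changed by -0.08 ± 0.41. The summed muscle markers were higher in Wnt3A, but the sum does not show which of them differed. Cdh4 changed by 0.02 ± 0.44.

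The remaining type II cadherins had no call. Cdh5, the cadherin of endothelium, read 0.176 and 0.725 in Control and 0.405 and 0.117 in Wnt3A (-0.70 ± 0.95). The arrays of each group were spread over each other, and of the endothelial markers Kdr and Tek were below the floor on every array while 3 of 7 were above it on all. Cdh8 lies next to Cdh11 in the genome and Cdh5 on the other side. Cdh8 read 0.0533 and 0.0435 in Control, below the floor, and 0.0976 and 0.0735 in Wnt3A (at least 1.28-fold higher, adjusted p 0.436), and its other 2 probes were below the floor on all arrays. Cdh6, Cdh9, Cdh10 and Cdh12, which follow each other on chromosome 15, changed by 0.16, -0.31, 0.34 and 0.59. Of the 12 type II genes tested, 7 were higher and 5 lower, with a median of 0.22. Cdh19 was below the floor on every array and was not tested.

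The non-classical members were also without a call. Cdh13, T-cadherin, which is held to the membrane by a lipid anchor and binds adiponectin, read 4.80 and 5.13 against 5.70 and 5.41 (0.17 ± 0.30). Its second probe had 1 Control array at 0.0557 and the other at 0.774 (2.45 ± 1.29). Cdh16 and Cdh23 changed by -0.28 and 0.29, and Cdh26 by 1.35 ± 0.68 from 0.160 and 0.0670 to 0.172 and 0.398 (adjusted p 0.504). Cdh17 was above the floor on a single array, Wnt3A replicate 1, at 0.332, and was not tested.

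How much a call rests on the choice of probe can be read across the 21 member genes with more than 1 tested probe. In 12 of them no probe went against another (1 of Itgb1 was at 0.00), and in 9 the directions differed: Itga1, Itga3, Itga4, Itga8, Itgav, Itgb3, Itgb4, Cdh18 and Cdh23. Of the 102 member probes, 66 were above the floor on all arrays and 17 on none. The median standard deviation within groups over tested member probes was 0.386 on the log2 scale.

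**Figure D3:**
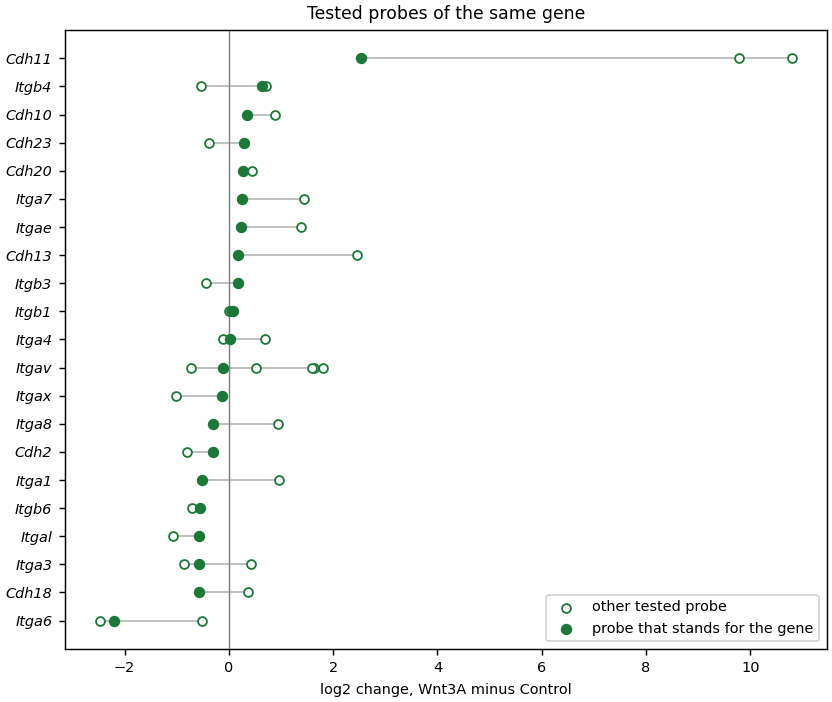
Log2 change of every tested probe of the 21 genes with more than 1, the filled point being the brightest, which stands for the gene. Cdh11 spans 2.54 to 10.80, Itgav -0.72 to 1.81, and the 3 probes of Itgb1 lie on top of each other near 0.

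Among the matrix proteins that integrins bind, several passed. Of 32 ligand genes tested 5 rose and 1 fell (0.402% and 0.241% of all genes), with 20 higher and 12 lower and a median of 0.88, also with the 4 genes below the floor in a group at their bound. Several of these genes were known from earlier results of these data when the list was written, so the count is not independent evidence. Tnc (tenascin-C) rose by 7.22, from 1.05 and 1.60 to 184 and 200 (adjusted p 0.0226), and Npnt, nephronectin, the ligand of alpha 8 beta 1, rose by 3.92 (0.0369). The others that rose were Tnn, tenascin-N (at least 1150-fold), Ibsp, bone sialoprotein (at least 79.2-fold), and Postn, periostin. Postn read 0.0891 and 0.0554 in Control, the second below the floor, and 37.9 and 54.6 in Wnt3A (adjusted p 0.0226 in limma). Tnn and Ibsp were below the floor on both Control arrays. Tnn, Ibsp and Postn thus entered the test through the Wnt3A arrays alone, and their calls rest in part on Control values below the floor. Nid1, a basement membrane linker, fell by 5.19 (0.0279). Lower without passing were Spp1, osteopontin (-3.35, from 442 and 511 to 58.1 and 37.0, adjusted p 0.0659), and Fbn1, fibrillin-1 (-4.90 ± 1.27, 0.240). Among the fibrillar collagens, Col3a1 was higher by 4.27 (0.0721), Col1a1 by 1.81 and Col1a2 by 1.35, none past the threshold by the brightest probe, though 1 of 2 Col3a1 probes passed. The laminin chains went both ways, with Lamb1 at -2.62 and Lama4 at 1.92. Lama5 read 0.178 and 0.381 in Control and was below the floor in Wnt3A. Lama1 was below the floor in Control and read 11.3 and 0.434 in Wnt3A, values too far apart for 1 bound. None of these 4 passed.

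Proteins on the inner side of these receptors showed no call. Of 30 integrin adaptors and kinases tested, 12 were higher, 18 lower and 0 past the threshold in limma, which 0.643% of all genes passed. There were 5 at an unadjusted p under 0.05 (12.7% of all genes), and the median was -0.12. Kank1, a talin-binding protein, was at 1.99 ± 0.36 (adjusted p 0.140). Lower were Cd151, a tetraspanin that associates with laminin-binding integrins (-2.16 ± 0.44, 0.168), the kindlin Fermt1 (-2.06 ± 0.46, 0.195, with 1 Wnt3A array below the floor) and the parvin Parvb (-1.44 ± 0.33, 0.201). Cd151 read 11.1 and 8.33 in Control and 1.60 and 2.86 in Wnt3A. The 18 catenins and cadherin partners had a median of -0.02, 0 calls and 2 at an unadjusted p under 0.05. Vcl, vinculin, was at 1.25 ± 0.43 and Afdn, afadin, at -1.21 ± 0.33. Of 10 transcription factors known to repress Cdh1, 0 passed and 4 had an unadjusted p under 0.05, where 12.7% of all genes did. Snai1 read 3.65 and 5.06 in Control and 1.30 and 1.13 in Wnt3A (-1.81 ± 0.33, adjusted p 0.140), while Zeb1 (1.64), Snai2 (1.70) and Twist1 (2.02) were higher and Foxc2 (-1.59) and Twist2 (-1.09) lower without passing.

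**Figure D4:**
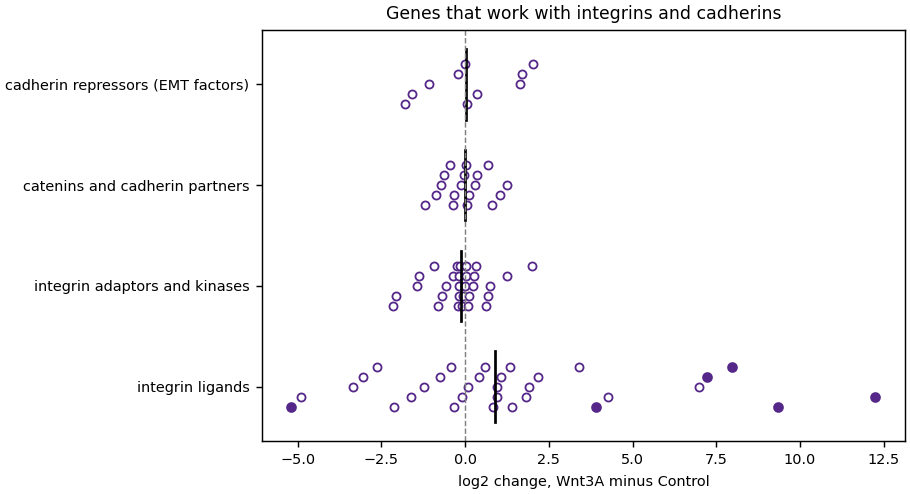
Log2 change of each tested gene of 4 lists that work with integrins and cadherins; filled points have an adjusted p under 0.05, black lines are list medians and the dashed line is the median of all genes. Filled points occur only among the ligands, whose median is 0.88.

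The scanner files gave other directions for many members. The file of Control replicate 1 was much dimmer than the others, and its part in these directions was not tested. Of 63 member probes tested in both sources, 26 had the same direction and 37 the opposite one, and of 13 that differed by 1 or more by the table's values, 6 kept it. None of the 43 member genes tested there passed in limma, with 1 at an unadjusted p under 0.05 (0 with normexp). The called probes of Itga11 and Cdh11 were not among those tested. Of the 42 genes whose probe in use was tested in both sources, 17 differed by more than 1 on the log2 scale. The scanner changes of these were, for integrins, -1.64 for Itga1, -1.33 for Itga10, -0.16 for Itga5, 0.02 for Itga6, 0.75 for Itga8, 1.24 for Itgal, -1.33 for Itgam, -2.99 for Itgav, 2.20 for Itgb1, 0.98 for Itgb2 and -1.17 for Itgb3. For cadherins they were -1.52 for Cdh2, 0.40 for Cdh3, 0.80 for Cdh5, -1.25 for Cdh6, -0.98 for Cdh10 and -1.05 for Cdh24. The Itgax probe at 3905, lower in the table, changed by 1.11, and the second Itgal probe by 1.81 against -1.07 in the table. No member probe was flagged as saturated on any scanner array, and compression short of that flag was not tested.

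**Figure D5:**
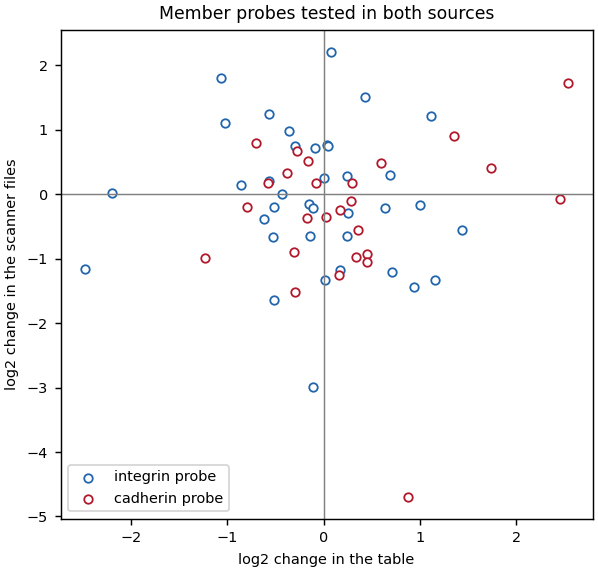
Log2 change of 63 member probes in the deposited table against that in the scanner files, integrins in blue and cadherins in red. The points do not follow a diagonal, and 37 of them lie in the quadrants of opposite sign.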

How the data were processed

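RNA of 2 Control and 2 Wnt3A samples of OP9 cells was amplified by PCR and hybridised to 1-colour Agilent arrays, 1 per sample on a single slide, per the labels' protocols and the file headers. The deposited table holds a linear intensity with a median of 1 in each column, and the authors' route to that scale is not given in the sources used here. The scanner files hold intensity values deposited from Feature Extraction 10.5.1.1, beside spot flags. Both share spot numbers, and in the table repeated spots of a probe differed by a median SD of 0.0820 to 0.101 (log2) against 3.41 to 3.51 over all spots, so names were joined by spot number.

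Log2 values were set to each array's 75th percentile and spots of a probe averaged. A probe was kept if both arrays of either group exceeded the floor. The floor was 4.94 times the 1st percentile of the array, a factor taken from flagged scanner spots. Members were named through accessions (65 probes) or symbols (37). The test was limma 3.58.1 (R 4.3.3), two-sided, with residual and prior degrees of freedom of 2 and 2.29, after it had been tested on simulated data. Of 200 simulated probes with a log2 change of 2 it called 0%. It called 84% at a change of 4 and 97% at 6, with 9 and 14 false calls. No exact test of 2 against 2 arrays gives a p below 0.333. Precision is limited by having 4 arrays. Members, lists and alternatives were chosen with earlier results of these data known, including the choice of the table over the scanner files. Every member could be named. Full statistics were for called members, the 5 largest changes in each direction and 7 members known in stroma. Of other lists, called genes and the 3 largest changes each way could be named, and some genes were chosen after their values were seen (Col3a1, Col1a1, Col1a2, Lama1, Lama4, Lama5, Lamb1). Alternatives covered the source, scaling, filter, probe choice, eBayes settings, replicate block and each array left out. Probe coordinates are those of the scanner files (mm8), not of the promoter build. Same-numbered arrays shared no deviation (r 0.0124 over 33709 probes).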

Additional observations from a re-analysis of the deposited data

How the results depend on the processing

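The source of the values, the filter on dim probes and the number of arrays each moved the counts. Over all genes 92 rose and 55 fell. Without a filter the counts were 20 and 15, when all 4 arrays had to exceed the floor 21 and 13, and they were 0 and 2 in the scanner files, and 0 and 0 there with normexp, where fewer probes were tested. The falls were 84 with a floor 2 times as high, 96 when the probes of a gene were averaged and 107 with trend and robust settings. With the replicate number as a block, 0 genes rose and 0 fell (2737 at an unadjusted p under 0.05), and the adjusted p of Itga11 was 0.0978; the fit then has 1 residual degree of freedom fewer, and the numbers do not pair the samples. Leaving out any 1 array gave 0 to 0 calls in either direction, over all genes and over members. Of the members, 0 rose in both scanner fits, when all 4 arrays had to exceed the floor (which drops Itga11) and with the replicate block, 2 rose with the mean of probes (which averages in Cdh11 probes below the floor in Control) or with trend and robust settings, which also gave 1 that fell, and 3 probes rose when probes were counted in place of genes. The members' median of 0.03 was -0.15 in the scanner files, and 0.03 to 0.23 when 1 array was left out, the highest without Control replicate 1. The other counts were within 1.5 times. The called probes of Itga11 and Cdh11 kept their direction in the alternatives drawn from the deposited table. Those alternatives reuse the same 4 arrays, so a kept direction is no independent check. With the replicate block the Cdh11 probes at 3155 and 3578 also lost their calls (adjusted p 0.0978 for each in limma). The called probes had no value in the scanner fits, so they could not turn there, and the comparison with other genes is limited to the table. Directions that turned belonged to genes without a call. In the scanner files, without and with normexp, Itga10 gave -1.33 and -1.07, the brightest Itga6 probe 0.02 and 0.06, Cdh5 0.80 and 0.61, Cdh18 0.18 and 0.08, and Itgb3 -1.17 and -0.80. Itga5 gave -0.16 without it, and the Itga6 probe at 3213 (0.22) and Itga2 (0.38) turned with it. Itgav gave 0.79 and Itgb3 -0.13 with the mean of probes. With an array left out, Cdh5 ran from -1.67 to 0.27, Itga2 from -1.74 to 0.49 and Itgb3 from -0.04 to 0.39. The cause of these was not tested.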

Other observations

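Other genes of the cadherin superfamily, chosen by name after the members' values were seen, also had 0 calls in limma among 48 tested. Over all genes 0.643% were called, so 0 among 48 is no result about this family. An unadjusted p under 0.05 was reached by 8 of the 48, and by 12.7% of all genes. Their median log2 change was 0.04. Of 34 protocadherins 17 were higher and 17 lower. The 7 desmosomal cadherins lay between -0.38 and 0.34. Fat4, a giant cadherin of planar polarity, read 0.138 and 1.92 in Control and 11.5 and 8.52 in Wnt3A (4.28 ± 1.30, adjusted p 0.299), so its Control arrays differed by more than 10 times. Pcdh1 read 2.46 and 1.71 against 0.655 and 0.598 (-1.70 ± 0.37, adjusted p 0.186). A probe with the old name 6720458D17Rik, which the RefSeq table lists as a synonym of Itga9 and the naming rule leaves out, read 0.293 and 0.220 in Control and 0.755 and 0.497 in Wnt3A (1.28 ± 0.41, adjusted p 0.313), the same direction as the Itga9 probe.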
